A study of Mus musculus with 5 samples.

Results

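The Snhg genes are small nucleolar RNA host genes, and 8 of them were followed here: Snhg1, Snhg3, Snhg5, Snhg6, Snhg7, Snhg8, Snhg11 and Snhg12. They were read on the probe sets whose label carries one of these symbols and no other. Of the 28187 probe sets tested, 3 met this rule, 1 for Snhg5 and 2 for Snhg11, so that 2 of the 19937 genes with a probe set of their own were Snhg members. Snhg7 and Snhg8 were each read by 1 probe set whose label also names a snoRNA lying within the gene. No probe set was named for the other 4 genes, Snhg1, Snhg3, Snhg6 and Snhg12, in the annotation used here. All 8 are listed as long non-coding RNAs in the RefSeq gene table.

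The study asked which RNAs come down with SMN, the survival motor neuron protein, which is known for its part in assembling small nuclear ribonucleoproteins. The cells were NSC-34, a mouse line made by fusing motor neurons with neuroblastoma cells, in 2 groups. The FLAG-SMN IP group (3 arrays) came from cells carrying a construct for full-length SMN with a 3XFLAG tag. The control IP group (2 arrays) came from NSC-34 cells with no FLAG construct. Both groups were grown in 10% serum, differentiated in 1% serum, given doxycycline at 3 µg/ml for 3 days, and irradiated with ultraviolet light at 400 mJ/cm2. Both were precipitated with anti-FLAG M2 magnetic beads, and 300 to 500 ng of precipitated RNA was labelled for each array. The labels give low serum as 3 days in one place and as 48 hours in another. The sources used here do not give the promoter of the construct or the number of clones. Control cells lacked both the tag and the extra SMN, so precipitation through SMN and a change in the RNAs of the cells cannot be told apart, and no array of unprecipitated RNA was analysed here. Each array read a pooled precipitate, so fewer cells holding an RNA and less of it per cell cannot be told apart either.

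Host genes of this class are transcribed by RNA polymerase II and spliced. Their introns hold snoRNAs, which are trimmed from the excised introns and packed with proteins into small nucleolar ribonucleoproteins. Box C/D snoRNAs, named Snord, guide 2′-O-methylation of other RNAs, and box H/ACA snoRNAs, named Snora, guide pseudouridylation. The spliced exons of many hosts are exported and translated over short reading frames, and nonsense-mediated decay then degrades them. Hosts of snoRNAs often begin with a run of pyrimidines, the terminal oligopyrimidine tract that ribosomal protein genes also carry.

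The stretch around the start of each host is shown because such a tract, where present, lies there. It runs from 40 bases before the annotated start base to 30 bases from it, as given by RefSeq for GRCm38.p6, 5′ to 3′ on the gene's strand, and 7 of the 8 genes had an entry. Capitals mark the unbroken run of C and T from the start base and any match to TATAAA on either strand. The stretches lie at chr19:8723447-8723516 (+) for Snhg1, chr4:132353657-132353726 (-) for Snhg3, chr9:88522868-88522937 (-) for Snhg5, chr2:26640215-26640284 (-) for Snhg7, chr3:123508307-123508376 (-) for Snhg8, chr2:158375673-158375742 (+) for Snhg11 and chr4:132308638-132308707 (+) for Snhg12.
Snhg1: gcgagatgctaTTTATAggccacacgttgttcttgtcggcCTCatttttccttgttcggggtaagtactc
Snhg3: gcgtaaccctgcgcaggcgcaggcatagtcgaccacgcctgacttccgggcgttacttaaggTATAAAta
Snhg5: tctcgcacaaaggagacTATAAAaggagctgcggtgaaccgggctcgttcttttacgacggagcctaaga
Snhg7: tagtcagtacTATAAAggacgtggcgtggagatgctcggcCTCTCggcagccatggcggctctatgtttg
Snhg8: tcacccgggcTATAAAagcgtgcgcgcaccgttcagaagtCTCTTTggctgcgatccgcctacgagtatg
Snhg11: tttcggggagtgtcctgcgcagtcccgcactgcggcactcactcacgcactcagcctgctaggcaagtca
Snhg12: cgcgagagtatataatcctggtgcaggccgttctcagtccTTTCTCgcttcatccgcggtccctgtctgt

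The run of C and T was 6 bases in Snhg8 and in Snhg12, 5 in Snhg7, 3 in Snhg1 and 0 in Snhg3, Snhg5 and Snhg11. A run that begins at another base than the annotated start was not counted, so 0 does not show that a tract is absent. A run of at least 4 was found in 3 of 7 member windows and in 6.86% of the 32817 promoter windows of the RefSeq table. TATAAA, searched on both strands of the whole 300-base window, was found in 5 of 7 member windows and in 13.6% of all windows. In Snhg5, Snhg7 and Snhg8 it lay on the gene's strand before the start. In Snhg1 it was on the opposite strand, and in Snhg3 it lay after the start, at bases 23 to 28. GGGCGG was in 3 of 7 (35.6% of all windows), CCAAT in 3 of 7 (37.4%) and TTCCGG in 2 of 7 (14.9%), while CACGTG (7.15%) and TGACGTCA (1.79%) were in none of the 7. Of the hosts with their own probe sets, Snhg5 held TATAAA and Snhg11 held none of the 6 motifs. These are matches of letters, and the arrays measured no promoter.

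Snhg5, which RefSeq also lists as mU50HG-b, was the host with a clear separation between the precipitates. Its log2 values on probe set 10595614 were 10.08, 8.87 and 8.74 in FLAG-SMN IP replicates 1, 2 and 3, and 7.30 and 7.00 in control IP replicates 1 and 2. The groups did not overlap, and replicate 1 of the FLAG-SMN IP stood above the other two. The group means were 9.23 ± 0.74 (SD, n = 3) and 7.15 ± 0.21 (SD, n = 2). The difference was 2.08 ± 0.41 on the log2 scale (SE), which is 4.23-fold, with a 95% interval from 2.15-fold to 8.30-fold. The limma adjusted p over all tested probe sets was 0.161, so Snhg5 did not pass the threshold of 0.05. It stood at rank 273 by p, and 0.209% of tested probe sets had a larger difference.

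The share of probe sets past a given mark in the whole table gives the scale for these counts. None of the 3 member probe sets passed at the adjusted threshold, where 0.0142% of all tested probe sets were higher in the FLAG-SMN IP. At an unadjusted limma p under 0.05, 1 of the 3 was higher, Snhg5, against 4.14% of all tested, and 0 were lower, against 6.31%. Every FLAG-SMN IP array lay above every control IP array for 1 of the 3, again Snhg5, and for 12.1% of all tested. All 3 had a positive difference, as did 53.1% of all tested.

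The outcome for Snhg5 turned on 1 array. When FLAG-SMN IP replicate 1 was left out, the difference fell to 1.65 on the log2 scale and the limma adjusted p was 0.0179, past the threshold. The rise in calls was not particular to Snhg5. In that fit 159 of all tested probe sets were higher past adjustment and 191 lower, against 4 and 5 with all arrays. Replicate 1 was highest for Snhg5 and widened the spread within its group. Over 13 alternative settings the Snhg5 difference lay between 1.65 and 2.33 and was positive in each. Its adjusted p lay between 0.0179 and 0.680, and the setting without replicate 1 was the only one of the 13 in which it passed.

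**Figure D1:**
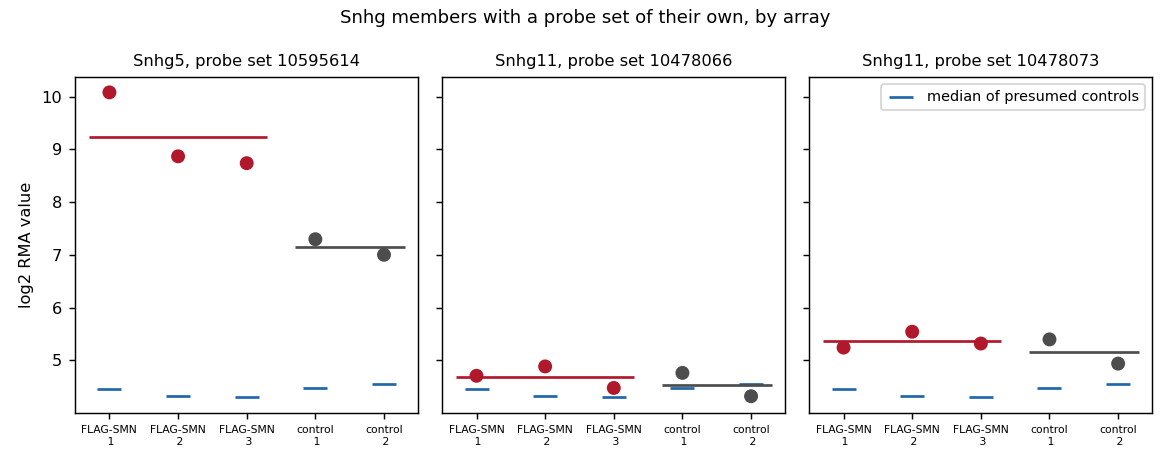
Log2 RMA values (vertical axis) of the 3 member probe sets in each of the 5 arrays (horizontal axis); red points are FLAG-SMN IP, grey points control IP, lines are group means, and blue dashes are the array's median over presumed control probe sets. Snhg5 lies between 8.74 and 10.08 in the FLAG-SMN IP and at 7.00 and 7.30 in the control IP, while the groups overlap on both Snhg11 probe sets.

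**Figure D2:**
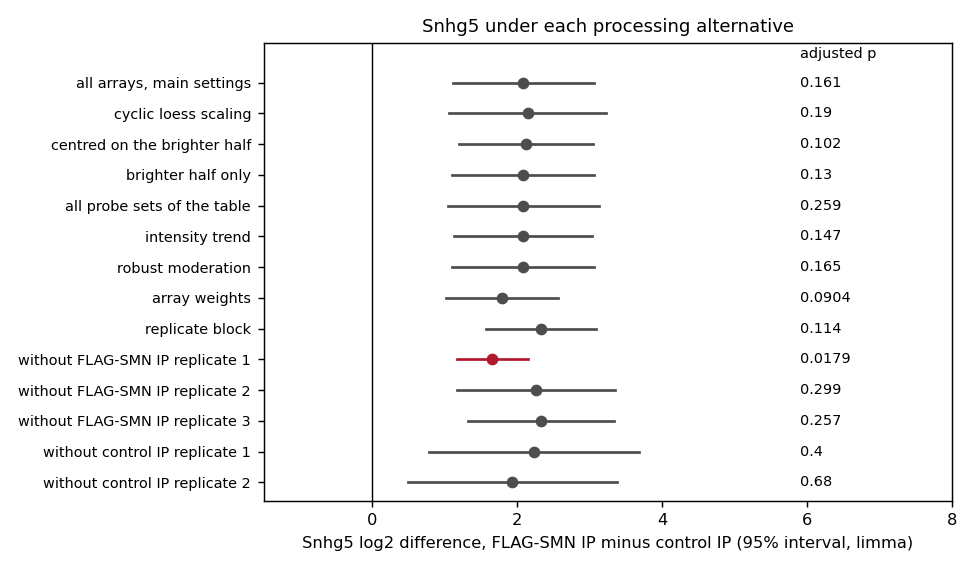
Snhg5 log2 difference, FLAG-SMN IP minus control IP (horizontal axis), with its 95% interval under the main settings and 13 alternatives, with the adjusted p at the right; red marks an adjusted p under 0.05. The differences run from 1.65 to 2.33, and the fit without FLAG-SMN IP replicate 1 is the one in red, at 0.0179.

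Snhg11, a host described in neurons, gave no difference larger than the spread between arrays. On probe set 10478073 its values were 5.24, 5.54 and 5.32 in the FLAG-SMN IP and 5.40 and 4.94 in the control IP. The groups overlapped, with control replicate 1 inside the range of the FLAG-SMN IP. The difference was 0.20 ± 0.22 (SE, log2), with an interval from 0.805-fold to 1.64-fold and a limma adjusted p of 0.889.

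The other Snhg11 probe set, 10478066, read 4.71, 4.89 and 4.48 in the FLAG-SMN IP and 4.76 and 4.32 in the control IP. Its groups overlapped as well. The difference was 0.15 ± 0.22 (SE, log2), with an interval from 0.767-fold to 1.60-fold and a limma adjusted p of 0.941. Without control IP replicate 2 the differences turned to -0.073 on this probe set and to -0.029 on 10478073. Probe set 10478066 lay above 45.9% to 59.6% of the presumed control probe sets of the same array, and 10478073 above 57.5% to 68.8%. Differences in Snhg11 within these intervals were not detectable with 5 arrays.

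Snhg7 and Snhg8 were seen only through labels shared with the H/ACA snoRNAs Snora43 and Snora24, so host exon and snoRNA cannot be told apart there. The probe set of Snora43 and Snhg7 read 7.92, 9.40 and 10.43 in the FLAG-SMN IP and 8.60 and 7.64 in the control IP. That of Snora24 and Snhg8 read 6.53, 8.13 and 8.83 against 6.69 and 6.65. In both, replicate 1 was the lowest FLAG-SMN IP array and fell within or below the control values, while replicates 2 and 3 lay above both controls. The differences were 1.12 ± 0.69 and 1.16 ± 0.61 (SE, log2), with limma adjusted p-values of 0.693 and 0.600.

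The snoRNAs carried by the hosts add a second view of the 8 genes. In RefSeq, 22 snoRNA genes lie within their bounds: 8 in Snhg1, 4 in Snhg12, 2 each in Snhg3, Snhg5, Snhg7 and Snhg11, and 1 each in Snhg6 and Snhg8. Of these, 6 had a probe set of their own, the 2 above shared one with their host, and 14 were not named on the array. None of the snoRNAs within Snhg5 or Snhg11 was among those measured, so host and snoRNA could not be set side by side for any of the 8.

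Snord22, a C/D snoRNA of Snhg1, read 9.39, 6.22 and 8.43 in the FLAG-SMN IP, against 4.87 and 5.20. The groups did not overlap, but the FLAG-SMN IP arrays were spread over more than 3 log2 units. The difference was 2.97 ± 0.83 (SE, log2), and the limma adjusted p was 0.268. Snord87, the C/D snoRNA of Snhg6, read 6.27, 7.89 and 8.12 against 5.99 and 5.92, again without overlap, for a difference of 1.48 ± 0.53 and a limma adjusted p of 0.388.

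The 4 H/ACA snoRNAs with their own probe sets lay closer to their controls. Snora73a and Snora73b, the pair within Snhg3 that is also called U17, read 8.40, 9.47 and 9.98 against 8.88 and 8.29, and 8.69, 9.16 and 9.92 against 8.67 and 8.44. The first overlapped the controls and the second cleared them by a margin far below its own SD of 0.62. Their differences were 0.70 ± 0.46 and 0.70 ± 0.35 (SE, log2), with limma adjusted p-values of 0.730 and 0.582. Snora16a of Snhg12 read 7.72, 9.07 and 8.50 against 8.42 and 7.49. Snora44, also of Snhg12, read 7.41, 10.02 and 10.04 against 8.63 and 8.26. Both overlapped, with differences of 0.47 ± 0.44 and 0.71 ± 0.77 and limma adjusted p-values of 0.857 and 0.890.

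Over the 6 snoRNA probe sets and the 2 shared ones, 8 of 8 differences were positive, against 53.1% of all tested. Their median was 0.92 on the log2 scale, against a median of 0.02 over all tested. At an unadjusted limma p under 0.05, 2 of the 8 were higher, Snord22 and Snord87, against 4.14% of all tested. None passed after adjustment. Of the probe sets named for a single snoRNA on the whole array, 27 of 30 Snord and 13 of 20 Snora were positive. At the same unadjusted mark 17 and 1 of these were higher. Without FLAG-SMN IP replicate 1, 3 of the 8 passed, against 0.564% of all tested. These were Snord87 at 2.05 (adjusted p 0.00954), Snora44 at 1.59 (adjusted p 0.0233) and the probe set of Snora24 and Snhg8 at 1.81 (adjusted p 0.0291), all on the log2 scale from limma. The median of the 8 was then 1.69, and 8 of 8 were higher at an unadjusted limma p under 0.05. In that fit 1669 of all 28187 tested probe sets were higher at that mark, as were 21 of 30 Snord and 15 of 20 Snora probe sets. Leaving out any other single array gave 0 to 1 of 8 at that unadjusted mark and 0 adjusted, and a median between 0.49 and 1.09.

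**Figure D3:**
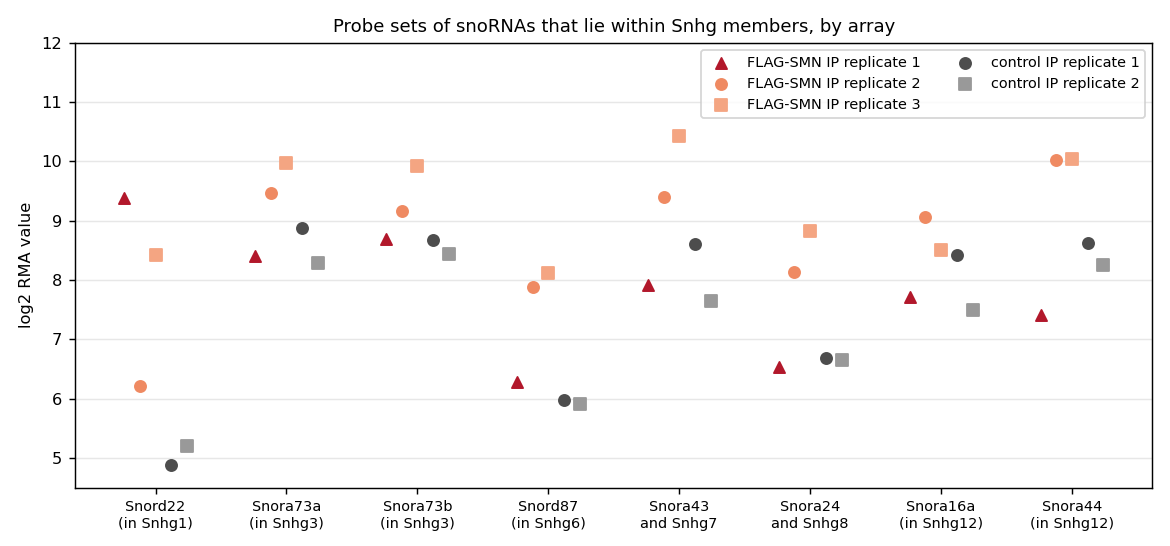
Log2 RMA values (vertical axis) of the 6 probe sets of snoRNAs within Snhg genes and of the 2 probe sets whose label joins a snoRNA and its host (horizontal axis), by array; triangles are FLAG-SMN IP replicate 1. The triangle is the lowest FLAG-SMN IP value in 7 of 8 probe sets, with Snord22 the exception.

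FLAG-SMN IP replicate 1 stood on opposite sides for Snhg5 and for most of these snoRNAs. It was the lowest FLAG-SMN IP array for 7 of the 8 probe sets, whereas it was lowest for 36.8% of all tested. It was the highest for Snhg5, as for 41.3% of all tested, by 1.28 over the mean of replicates 2 and 3. It was also the highest for Snord22, by 2.07. For the 8 probe sets together the median of the same gap was -1.53. Across the table the median gap was 0.02, with the 5th and 95th percentiles at -0.84 and 0.83. Both Snhg11 probe sets were within those percentiles. All 20 probe sets named for a single Snora had replicate 1 lowest, with gaps from -3.74 to -0.37, so the H/ACA snoRNAs of the Snhg genes shared this with H/ACA snoRNAs of other hosts. For the 30 Snord probe sets it was lowest in 15 and highest in 8. Over all tested probe sets replicate 1 correlated with replicates 2 and 3 at r of 0.964 and 0.968, across genes within these arrays, and replicates 2 and 3 with each other at 0.989. What sets replicate 1 apart was not tested.

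**Figure D4:**
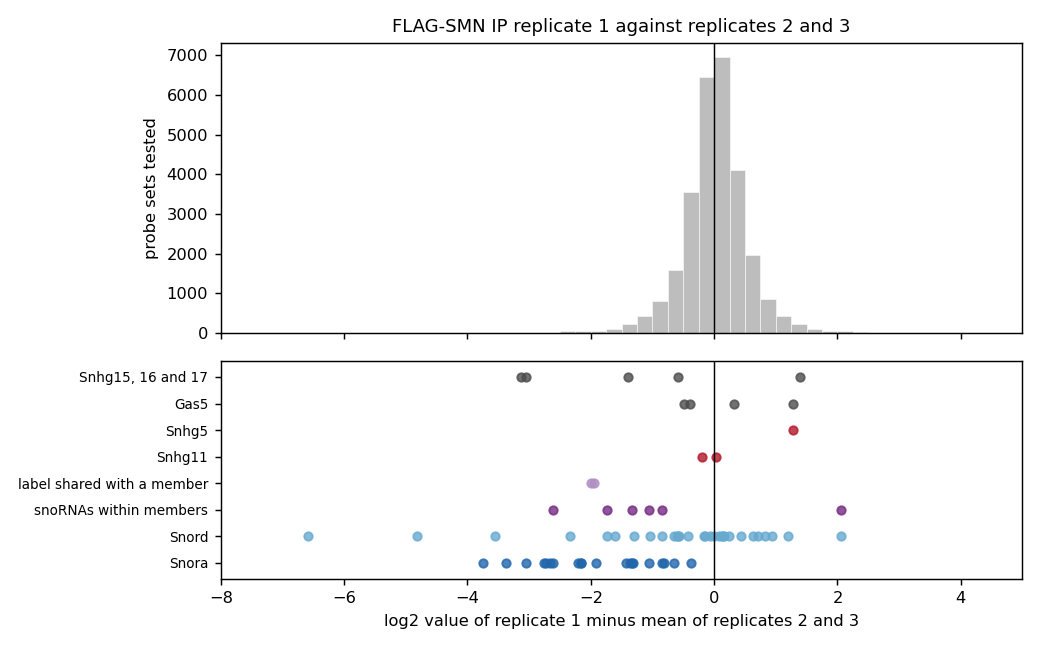
Gap between FLAG-SMN IP replicate 1 and the mean of replicates 2 and 3, in log2 units (horizontal axis): above, the number of tested probe sets per bin (vertical axis); below, 1 point per probe set for the named groups. Snhg5 sits at 1.28, the Snora probe sets all lie below 0 with a median of -2.03, and the whole table has a median of 0.02.

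Other genes of the same family were read for comparison. Snhg16 read 7.82, 6.26 and 6.58 in the FLAG-SMN IP and 5.81 and 6.10 in the control IP. As in Snhg5, the groups did not overlap and replicate 1 was the highest, with a difference of 0.93 ± 0.45 (SE, log2) and a limma adjusted p of 0.554. Snhg15 read 7.44, 8.59 and 9.08 against 8.25 and 7.89, with replicate 1 below both controls, a difference of 0.30 ± 0.46 and a limma adjusted p of 0.941.

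Snhg17, which lies beside Snhg11 on chromosome 2 in RefSeq, had 3 probe sets that did not give the same picture. Probe set 10489237 differed by 0.82 ± 0.29 (SE, log2), with a limma adjusted p of 0.376. Probe sets 10489235 and 10489239 differed by 0.03 ± 0.92 and 0.50 ± 0.93. In these, replicate 1 lay 3.13 and 3.06 below the mean of the other FLAG-SMN IP arrays, a gap in the range of the Snora probe sets. RefSeq places 2 snoRNA genes within Snhg17, and whether these probe sets lie on them was not examined here.

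Gas5, a non-coding host of many C/D snoRNAs, had 4 probe sets, all with positive differences, of 1.03 to 2.49. Of these, 10351037 passed in limma (2.49, adjusted p 0.0448), although it did so in only 6 of the 13 alternatives and in 1 of the 5 that leave out an array, the one without FLAG-SMN IP replicate 1. Its snoRNA Snord47 differed by 1.77 (adjusted p 0.0864). On the brightest Gas5 probe set, 10351026, replicate 1 was 1.28 above the mean of the other FLAG-SMN IP arrays, as in Snhg5. With the brightest probe set of each gene, the 4 measured genes of 10 in this list (Gas5, Snhg15, Snhg16 and Snhg17) all had positive differences. Their median was 0.71, and 50.4% of all genes were positive on their brightest probe set. On these probe sets the sign was not stable for Snhg15 and Snhg17, each positive in 11 of the 13 alternatives.

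**Figure D5:**
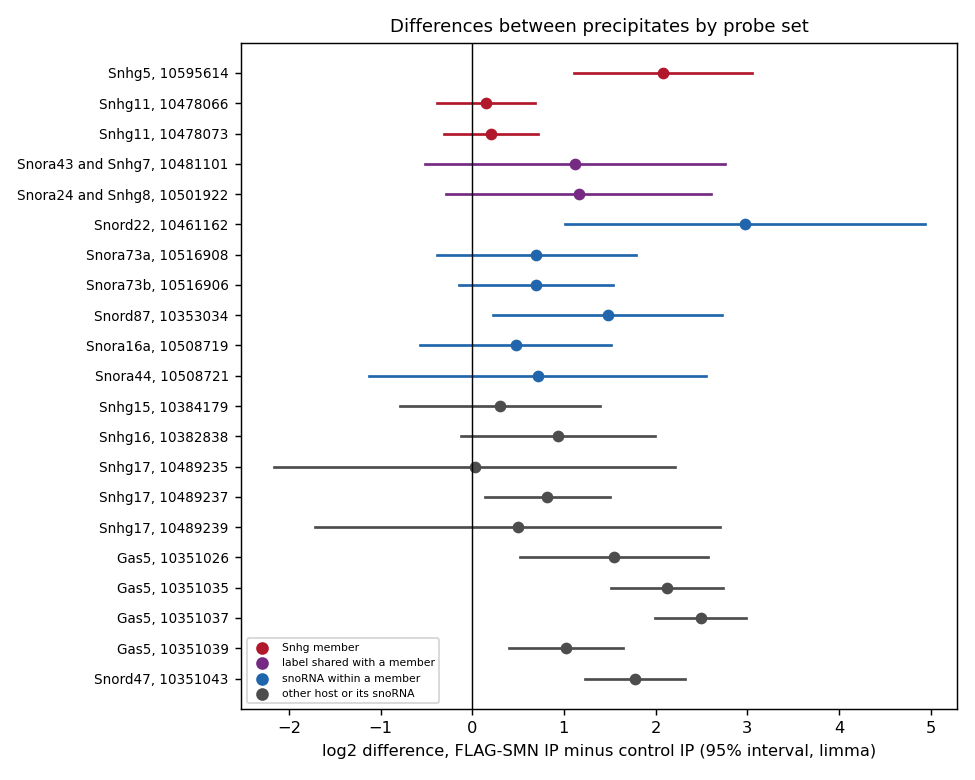
Log2 difference between FLAG-SMN IP and control IP (horizontal axis) with its 95% interval from limma, for each probe set of the Snhg members, of the snoRNAs within them, and of other hosts (vertical axis, colours by class). Snhg5 (2.08), Snord22 (2.97) and Snord87 (1.48) have intervals above 0, both Snhg11 intervals span 0, and the other snoRNA intervals within Snhg genes span 0 too.

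Snhg5 and Snhg11 were set beside the wider group of snoRNA hosts and the genes that act on them. Of 372 protein-coding genes that hold a snoRNA, 324 were measured by a named probe set. Their median difference was -0.03 on the log2 scale, and at the unadjusted mark of 0.05 there were 17 higher, 38 lower and none past adjustment in limma. Over the brightest probe sets of all 19937 genes, 3.25% were higher and 7.21% lower at that mark, which is the background for this and the following gene lists. Smallest in p among them was Zc3h3, a zinc finger gene, which read 8.20, 7.45 and 7.52 against 5.58 and 5.05. Grk5, a G protein-coupled receptor kinase, read 8.42, 8.80 and 9.30 against 6.65 and 7.21. In this and the following lists the 2 named genes are those with the smallest p, so their separation is no separate result. Both genes here were higher without overlap, as were 42 of the 324 and 2187 of all 19937 genes. Their adjusted p did not pass.

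Of 92 other non-coding hosts, 8 were measured, with 1 higher and 0 lower at the unadjusted mark, none past adjustment in limma, and a median of 0.23. Gm24463, a long non-coding RNA on chromosome 9 as Snhg5 is, read 8.83, 7.99 and 8.25 against 6.45 and 6.55. As in Snhg5, its groups did not overlap and replicate 1 was the highest. AI506816 went the other way, with 6.11, 8.37 and 8.21 in the FLAG-SMN IP and 8.66 and 9.02 in the control IP.

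Nonsense-mediated decay factors act on spliced host transcripts. Of 15 measured genes of 19, 0 were higher and 1 was lower by unadjusted p, a share near the background of 7.21%, none passed after adjustment in limma, and the median was -0.17. Smg9, a regulator of the SMG1 kinase, read 6.13, 6.11 and 6.33 against 6.57 and 6.74. Dcp1a, a decapping factor, read 5.72, 6.78 and 6.94 against 7.05 and 7.66. Both were lower in all 3 FLAG-SMN IP arrays than in either control. That held for 6 of the 15 genes and for 2955 of all 19937.

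For snoRNP core and assembly genes, 15 of the 16 symbols listed were measured, and the symbols may not all be distinct genes. At the unadjusted mark 2 were higher and 1 lower, none passed adjustment in limma, and the median was -0.16. Dkc1, which encodes the pseudouridine synthase of H/ACA particles, read 7.95, 7.68 and 8.08 against 8.53 and 9.12. Nhp2, which encodes another H/ACA core protein, read 9.45, 9.34 and 9.36 against 8.96 and 8.87. The arrays read the RNA of these genes, and say nothing of the proteins in the precipitate.

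Likeness to the hosts was measured as the root mean square difference between profiles over the 5 arrays, each centred on its mean. The bright probe sets nearest to the median profile of Snhg5 and Snhg11 were those of Rpl21 (0.0875 log2 units), Sil1 (0.103), Gadd45b (0.104), Rpl24 (0.106) and 1700073E17Rik (0.114). With 2 hosts that median is the mean of their profiles, with a difference of 1.14, between Snhg5 (2.08) and Snhg11 (0.20). It is thus the profile of neither host, and the probe sets just named differed by 1.01 to 1.11. Nearest to Snhg5 alone was Ctla2a at 0.133, which read 8.47, 7.41 and 7.42 in the FLAG-SMN IP and 5.76 and 5.74 in the control IP. Nearest to Snhg11 alone was Cox5b at 0.0427, whose values ran from 12.36 to 12.85.

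The labels were checked on the same arrays. Smn1, the gene of the tagged protein, read 1.74 higher in the FLAG-SMN IP on the log2 scale (limma adjusted p 0.0877). Of the 10 motor neuron markers, Prph (10.37 to 11.52), Nefh (7.25 to 8.77), Isl1, Isl2, Nefm and Slc18a3 lay above the array medians of presumed controls, 4.30 to 4.54, in every array. Lhx3 (4.51 to 5.20) and Chat (4.28 to 4.69) were near those medians, and Mnx1 (3.40 to 4.17) and Slc5a7 (3.20 to 3.81) were below them. Nefh differed by -0.89 on the log2 scale, lower in the FLAG-SMN IP without overlap, the 1 motor neuron marker of 10 past the unadjusted mark. These are levels in precipitates and not in whole cells. Of 5 markers of noradrenergic neuroblastoma, 3 were lower at an unadjusted limma p under 0.05, against the background of 7.21%. These were Dbh (-2.23), Th (-1.94) and Chga (-1.88), while the groups overlapped for Phox2a (-0.19) and Hand2 (-0.016). The median level of the 5 was 6.12 to 6.91 in the FLAG-SMN IP and 8.33 to 8.64 in the control IP. That median is the value of Chga in every array. Of 6 general neuron markers, 3 were lower at the unadjusted mark without overlap, Snap25 (-2.14), Elavl3 (-1.21) and Elavl4 (-0.73). The groups overlapped for Gap43 (-0.30), Tubb3 (-0.04) and Stmn2 (0.12), and the median of the 6 was -0.51. None of these markers passed after adjustment in limma. FLAG-SMN IP replicate 1 was the highest of its group for 6 of 6 of these neuron markers, as for Snhg5. It was the highest for 41.5% of all genes on their brightest probe set. The part of these markers in the Snhg values was not tested. Markers of astrocytes, oligodendrocytes, fibroblasts and immune cells had median levels of 4.18 to 5.02 in every array. Single members of these lists differed. Col1a1 (5.61 to 6.34) and Mbp (5.02 to 5.38) lay above the array medians of presumed controls in every array. Dcn (3.29 to 3.53) and Lum (2.55 to 3.16) lay below them. Col1a1 was thus about as high as the motor neuron marker Isl2 (5.48 to 5.86), so these levels alone do not tell cell types apart.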

How the data were processed

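The deposited values are log2 expression values per probe set, made by the authors with RMA per the submitters' processing notes. The sources used here state neither the version nor the settings. RMA brings arrays to a common distribution, so a general difference in recovered RNA is not visible. The table held 34760 probe sets in 5 arrays; the 6573 with IDs below the lowest annotated ID were left out as presumed controls. Of the 28187 tested, 21640 carried 1 gene symbol, 1321 several and 5226 none, and 21553 matched RefSeq (GRCm38.p6), with 0 symbols changed.

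Groups were compared with limma 3.58.1 under R 4.3.3, using lmFit and then eBayes, without a replicate block. Tests were 2-sided, p-values were adjusted by Benjamini-Hochberg over every tested probe set, and the threshold was 0.05 (3 residual and 3.8 prior degrees of freedom). The fit was tested on simulated data in which all arrays had the same spread for a probe set. Such a test does not cover an array that stands apart from its group. Lists used the brightest probe set of each gene, and likeness only single-symbol probe sets above the median mean signal. A snoRNA was placed in a host by RefSeq bounds alone, since that table gives no strand. Signals of different probe sets were ranked only to choose the brightest one of a gene, and levels were set against the presumed controls of the same array, not read as amounts. The labels do not say whether the replicates are separate cultures. The p-values therefore reflect the spread among these arrays alone, which may be technical, and the number of arrays limits the precision.

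Named genes were all probe sets of the members, of snoRNAs within them and of other Snhg genes, Gas5, Snord47 and Smn1, the 2 genes of each list with the smallest p, and the nearest profiles. The members and lists were chosen with earlier results of these data known. Alternatives changed the scaling, the filter, the moderation, array weights, a replicate block and each left-out array. The gap of replicate 1 was chosen after seeing the data.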

Additional observations from a re-analysis of the deposited data

How the results depend on the processing

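Snhg5 kept a positive difference under every alternative run, and leaving out single arrays moved it between 1.65 and 2.33 (1.65 without FLAG-SMN IP replicate 1, where it passed). For Snhg11 the same ranges were -0.073 to 0.37 (10478066) and -0.029 to 0.43 (10478073), neither passing. The median over the 3 member probe sets, 0.20, ran from -0.029 to 0.43, and the number past adjustment from 0 to 1. Over all tested probe sets 4 were higher and 5 lower at the adjusted threshold. These counts became 0 and 0 with cyclic loess, 16 and 25 with centring on probe sets above the median signal, 0 and 0 with presumed controls kept, 26 and 60 with array weights, and 0 and 0 with the replicate block; robust moderation gave 3 lower. Leaving out single arrays gave 0 to 159 higher and 0 to 191 lower, with the highest counts without FLAG-SMN IP replicate 1 and 0 without any other array. At an unadjusted limma p under 0.05, 1166 of all 28187 tested were higher and 1779 lower, and leaving out arrays gave 1009 to 2057 lower. The fit on probe sets above the median signal gave 733 higher and 1179 lower. It tested only those probe sets, so a smaller count there is not a smaller share. With the replicate block, Snhg5 differed by 2.33 (limma adjusted p 0.114), Snhg15 by -0.055, and Snhg17 by -0.60 (10489235) and -0.10 (10489239); leaving out arrays gave -0.055 to 0.77, -0.60 to 1.07 and -0.10 to 1.52 for these 3. The replicate numbers were not taken as pairs, since nothing in the labels says that they mark a shared culture or day. Deviations of same-numbered arrays correlated at 0.13 and -0.20 for the 2 shared numbers. The deviations of 2 control arrays mirror each other, so these correlations cannot decide on pairing. The mean of all Gas5 probe sets was 1.80, against 1.55 for the brightest. With 3 and 2 arrays, only 2 of the 8 hosts named, and Snhg11 near the presumed controls, smaller differences were not detectable. Both Snhg11 probe sets lie below the median signal of all tested probe sets. The fit on probe sets above that median therefore gave no value for them.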

Other observations

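Probe sets named for a single Snord or Snora were also counted by class, the 6 of snoRNAs within Snhg genes included. The brightest probe set stood for each snoRNA. Of 30 Snord probe sets, 17 were higher in the FLAG-SMN IP at an unadjusted limma p under 0.05 and 27 had a positive difference. Their median was 0.91 on the log2 scale. Over the brightest probe sets of all genes, 3.25% were higher at that mark and 50.4% were positive. Of all 53 snoRNA genes measured, those with other names included, 18 were higher at that mark and 41 were positive. Of 20 Snora probe sets, 1 was higher at that mark and 13 were positive, with a median of 0.45. None of the 50 passed after adjustment, and the difference between the classes was not tested. Snord15a read 8.97, 8.82 and 9.40 against 6.92 and 6.74, without overlap. Snord42a read 7.42, 7.56 and 7.03 against 5.39 and 5.27. Snora21 read 8.02, 12.15 and 11.36 against 11.86 and 10.60, with FLAG-SMN IP replicate 1 far below the rest. Snord118, which is the U8 snoRNA, read 3.76, 10.64 and 10.03 against 10.29 and 9.69, with the same array lowest. These 4 snoRNAs were chosen after their values were seen. Without FLAG-SMN IP replicate 1, 10 of the 30 Snord and 1 of the 20 Snora probe sets passed after adjustment in limma, against 0.564% of all tested. At the unadjusted mark 21 and 15 were then higher, against 1669 of all 28187 tested.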
